A study of Mus musculus with 8 samples.

Results

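The genes examined here encode the T cell receptor complex and the CD8 co-receptor of naive CD8+ T cells. They are the CD3 chains Cd3d, Cd3e and Cd3g, the zeta chain Cd247, the co-receptor chains Cd8a and Cd8b1, and the receptor constant genes Trac, Trbc1 and Trbc2. These 9 genes were chosen by name from the 55573 genes of a raw count table, whose Ensembl identifiers were paired with mouse symbols, and all 9 were found. They were followed through all 8 RNA sequencing libraries by genotype, as levels and as ratios of one chain to another. Of the libraries, 5 were labelled Furin KO and 3 WT. Spleen and lymph nodes of male C57BL/6 mice were the source of the cells, which were enriched on CD8a magnetically and sorted as naive cells by flow cytometry, and used ex vivo. Furin KO replicate 1 and WT replicate 1 came from mice of 7 weeks, and Furin KO replicates 2 to 5 and WT replicates 2 and 3 from mice of 8 weeks. The labels leave unsaid which part of Furin was removed, in which cells, and whether libraries are separate mice. The p-values therefore cover the spread among these libraries only, part of which may be technical.

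The receptor of most T cells is a pair of variable chains, alpha and beta, whose constant parts are encoded by Trac and by either Trbc1 or Trbc2. These chains have no signalling tails, and reach the cell surface only together with the CD3 dimers (epsilon with delta, epsilon with gamma) and the zeta chain dimer, whose tails carry the motifs that the kinase LCK phosphorylates. CD8, a dimer of alpha and beta chains on these cells, binds the same class I MHC molecule as the receptor and brings LCK to it. FURIN is a protease that cleaves precursor proteins in the secretory pathway, and the comparison asked how naive CD8+ T cells differ without it.

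The total count per library was 11308220 to 21040431 in the libraries labelled Furin KO and 14463450 to 19159021 in WT. Furin itself was at 58.0 to 86.4 CPM (CPM being counts scaled to a common, TMM-adjusted library size) in libraries labelled Furin KO and 57.0 to 66.9 CPM in WT. Its log2 fold change was 0.12 (95% interval -0.15 to 0.40; edgeR adjusted p = 0.9998). The whole-gene count does not show which exons were read, so it does not check the labels. Furin KO and WT are used below as the names that the labels give. No label names a batch. The sample numbers in the titles form 3 runs, 1 and 2, 3 to 5, and 6 to 8, each with both genotypes, and the first run holds the 7-week libraries, so age and that run cannot be told apart.

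None of the 9 genes passed the test between the genotypes in these libraries. All 9 passed the filter on low counts, and 0 of 9 passed edgeR's quasi-likelihood test at an adjusted p under 0.05, where 0.032% of the 12500 genes tested did (4 genes). Of the 9, 0 had an unadjusted p under 0.05, against 3.21% of all genes, and 0 had groups that did not overlap, against 2.9%. Their log2 fold changes ran from -0.06 (Cd247) to 0.15 (Cd8a), with 6 of 9 above 0 where 49.8% of all genes were, and a median of 0.0037, where that of all genes was -0.00068. Each edgeR adjusted p was 0.9998. The 95% intervals of the other 8 genes lay between -0.26 and 0.25 on the log2 scale, and that of Cd8a reached 0.33. The 9 genes together held 0.867 ± 0.051% of all counts in the libraries labelled Furin KO and 0.846 ± 0.074% in WT (mean ± SD, n = 5 and 3). In bulk RNA, fewer cells of a type and less RNA per cell cannot be told apart.

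**Figure D1:**
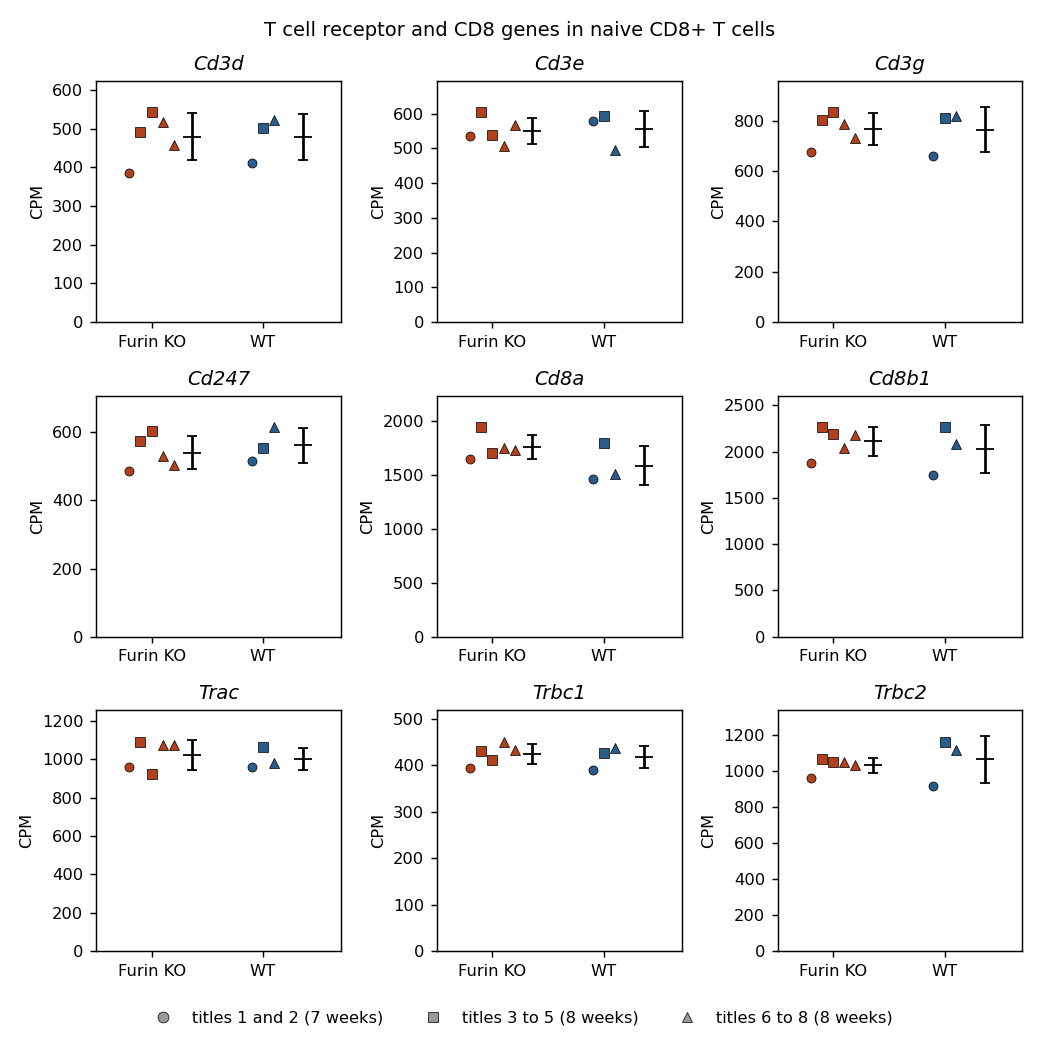
Level in CPM (vertical axes, from 0) of each of the 9 genes in every library, with Furin KO left of WT. Points are libraries, their shape gives the run of sample numbers, and the bar beside them is the mean ± SD (n = 5 and 3). The groups overlap at every gene, and both 7-week libraries lie lowest at Cd3d, Cd3g, Cd8b1, Trbc1 and Trbc2.

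**Figure D2:**
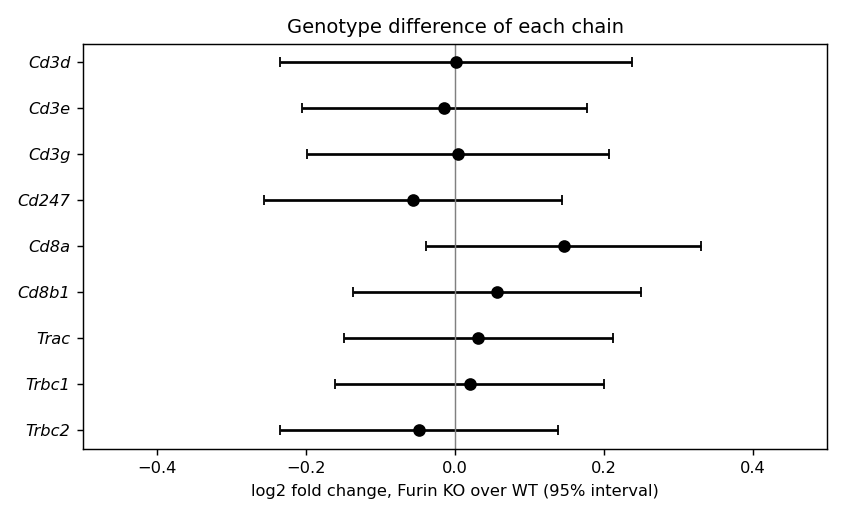
The log2 fold change of each gene, Furin KO over WT (horizontal axis), from edgeR's quasi-likelihood fit on 8 libraries. Points are estimates and bars 95% intervals, and all 9 intervals include 0.

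The co-receptor chains were the most abundant of the 9 by count. Cd8a, the chain whose tail binds LCK (ENSMUSG00000053977, GRCm38 chromosome 6, 71373427 to 71379173, plus strand), had 1648, 1941, 1703, 1744 and 1726 CPM in Furin KO replicates 1 to 5, and 1457, 1790.2 and 1505 CPM in WT replicates 1 to 3. WT replicates 1 and 3 were below every library labelled Furin KO, and WT replicate 2 was above all but 1 of them. The means were 1752 ± 111 CPM in Furin KO and 1584 ± 180.4 CPM in WT, and the log2 fold change of 0.15 (SE 0.088, 95% interval -0.039 to 0.33) was the farthest from 0 among the 9. As a ratio this is 1.11, with an interval of 0.973 to 1.26. It did not pass (edgeR unadjusted p = 0.115; exact two-sided permutation p = 0.161 on log2(CPM + 1), of which the smallest possible over 56 arrangements is 0.0179). Within the runs, Cd8a was at 1648 CPM in Furin KO and at 1457 CPM in WT (n = 1 and 1), then 1822 and 1790.2 (n = 2 and 1), then 1735 and 1505 (n = 2 and 1). With the run as a factor its edgeR unadjusted p was 0.0434 and its adjusted p 0.855.

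Cd8b1, the beta chain, which makes CD8 a more efficient co-receptor (ENSMUSG00000053044, chromosome 6, 71322788 to 71337494, plus strand), ends 35933 bases before Cd8a begins. It had 1877, 2266, 2188, 2042 and 2185 CPM in Furin KO replicates 1 to 5 and 1751, 2262 and 2079 CPM in WT replicates 1 to 3. The 2 libraries of 7-week mice were the lowest, and the groups overlapped. Its log2 fold change was 0.056 (95% interval -0.14 to 0.25; exact permutation p = 0.554). The ratio of Cd8a to Cd8b1 counts, which needs no library scaling, was 0.831 ± 0.044 in Furin KO and 0.782 ± 0.055 in WT (n = 5 and 3), a log2 difference of 0.089 (95% interval -0.095 to 0.26 by inverting the exact permutation test, p = 0.179).

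The CD3 genes lie together on chromosome 9. Cd3g (ENSMUSG00000002033, 44969572 to 44980431, minus strand) and Cd3d (ENSMUSG00000032094, 44981786 to 44987339, plus strand) are transcribed away from each other from starts 1355 bases apart. Cd3e (ENSMUSG00000032093, 44998740 to 45009627, minus strand) lies beyond Cd3d and is transcribed towards it, with 11401 bases between their ends. The 250 bases before each RefSeq start are shown because the ratios of these genes differed in steadiness. Of the 36 pairs of the genes examined, Cd3d with Cd3g kept the steadiest ratio, by a small margin. Cd3d with Cd3e had the least steady one. Whether these sequences bear on the ratios was not tested. They are RefSeq sequences on GRCm38.p6, 5′ to 3′ on the strand of the gene, at chr9:44981536-44981785 (Cd3d, plus), chr9:44980432-44980681 (Cd3g, minus) and chr9:45009612-45009861 (Cd3e, minus). The RefSeq start of Cd3e lies inside the GENCODE gene, so the last bases of that window, as printed, lie within it. Capitals mark matches to the E box CANNTG, the motif of basic helix-loop-helix factors such as E2A and HEB.
Cd3d: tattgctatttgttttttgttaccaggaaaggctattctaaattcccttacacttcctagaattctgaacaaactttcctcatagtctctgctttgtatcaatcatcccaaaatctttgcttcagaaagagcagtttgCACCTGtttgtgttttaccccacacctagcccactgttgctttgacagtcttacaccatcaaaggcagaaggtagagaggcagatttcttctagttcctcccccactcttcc
Cd3g: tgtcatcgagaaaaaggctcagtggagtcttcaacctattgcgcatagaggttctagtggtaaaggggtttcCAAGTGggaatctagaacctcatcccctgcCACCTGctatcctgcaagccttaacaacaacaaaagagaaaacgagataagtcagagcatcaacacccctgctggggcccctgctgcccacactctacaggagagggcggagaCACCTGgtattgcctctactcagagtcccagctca
Cd3e: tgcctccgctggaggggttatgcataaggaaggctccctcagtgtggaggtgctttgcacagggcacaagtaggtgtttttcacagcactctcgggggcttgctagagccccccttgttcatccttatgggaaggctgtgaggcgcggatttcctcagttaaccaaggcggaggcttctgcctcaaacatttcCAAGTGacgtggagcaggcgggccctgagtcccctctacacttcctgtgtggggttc

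An E box was matched once before Cd3d, 3 times before Cd3g and once before Cd3e. On both strands, 66.2% of the 32851 windows of this length in the RefSeq table hold at least 1. GATA was matched once before Cd3d, 2 times before Cd3g and 0 times before Cd3e (53.6% of all windows). GGAA, the core of ETS factor motifs, was matched 6, 2 and 5 times (93.4% of windows), and TGTGGT, the core of RUNX motifs, 0 times in each (14.0% of windows). 1 E box of Cd3g and that of Cd3e each share 1 base with a GGAA match. The Cd3d and Cd3g windows lie on opposite strands, at the ends of the stretch between the genes.

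Cd3d, the delta chain, had 386, 493, 542, 518 and 457 CPM in Furin KO replicates 1 to 5 and 410, 502 and 524 CPM in WT replicates 1 to 3. Cd3g, the gamma chain, had 673, 801, 832, 788 and 733 CPM in Furin KO and 661, 809.6 and 819.65 CPM in WT. Both genes were lowest in the 7-week library of each genotype, and Furin KO replicate 3 was the highest at both. The means of Cd3d were 479.1 ± 60.7 CPM in Furin KO and 478.7 ± 60.0 CPM in WT, and its log2 fold change was 0.0012 (95% interval -0.24 to 0.24; exact permutation p = 1.0). Cd3g had a log2 fold change of 0.0037 (95% interval -0.20 to 0.21; exact permutation p = 0.929).

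Cd3e, the epsilon chain that is part of every CD3 dimer, ran a different course through the libraries. It had 534, 603, 539, 506 and 566 CPM in Furin KO replicates 1 to 5 and 578, 592 and 496 CPM in WT replicates 1 to 3. Its lowest values were in WT replicate 3 and Furin KO replicate 4, where Cd3d was near its highest, and the 7-week libraries lay inside its range. The log2 fold change between the genotypes was -0.014 (95% interval -0.21 to 0.18; exact permutation p = 0.911). 2 annotated genes overlap Cd3e, Gm48719 on the opposite strand, which shares 135 exonic bases and had at most 1 count, and Gm48720, which shares none and had at most 0.481% of the Cd3e count.

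The ratio of Cd3d to Cd3g counts was 0.574, 0.615, 0.651, 0.657 and 0.624 in Furin KO replicates 1 to 5 and 0.621, 0.62 and 0.639 in WT replicates 1 to 3. It spanned 1.15-fold over the 8 libraries, with an SD of 0.061 on the log2 scale, where counting error alone would give 0.020. The ratio of Cd3d to Cd3e was 0.723, 0.817, 1.01, 1.02 and 0.807 in Furin KO and 0.7099, 0.847 and 1.06 in WT. It spanned 1.49-fold with a log2 SD of 0.225, and counting error alone would give 0.022. Of the 36 pairs of the 9 genes, the first had the smallest SD and the second the largest. The next smallest were 0.063 for Cd3g with Trbc2 and 0.069 for Trac with Trbc1, each a pair on different chromosomes. The next largest were 0.182 each, for Cd3d with Trac and Cd3d with Cd8a.

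Neither ratio passed the exact two-sided permutation test between the genotypes. The log2 difference was -0.0073 for Cd3d to Cd3g (95% interval -0.17 to 0.094; exact p = 0.929) and 0.012 for Cd3d to Cd3e (95% interval -0.48 to 0.53; exact p = 0.982). Cd3g to Cd3e was 1.40 ± 0.14 in Furin KO and 1.39 ± 0.26 in WT (log2 difference 0.019, 95% interval -0.35 to 0.44; exact permutation p = 0.893). The ratios to Cd3e moved between libraries of each genotype: Cd3d to Cd3e was 0.723 and 0.7099 in Furin KO and WT of the first run, and 0.914 and 1.06 in those of the third.

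**Figure D3:**
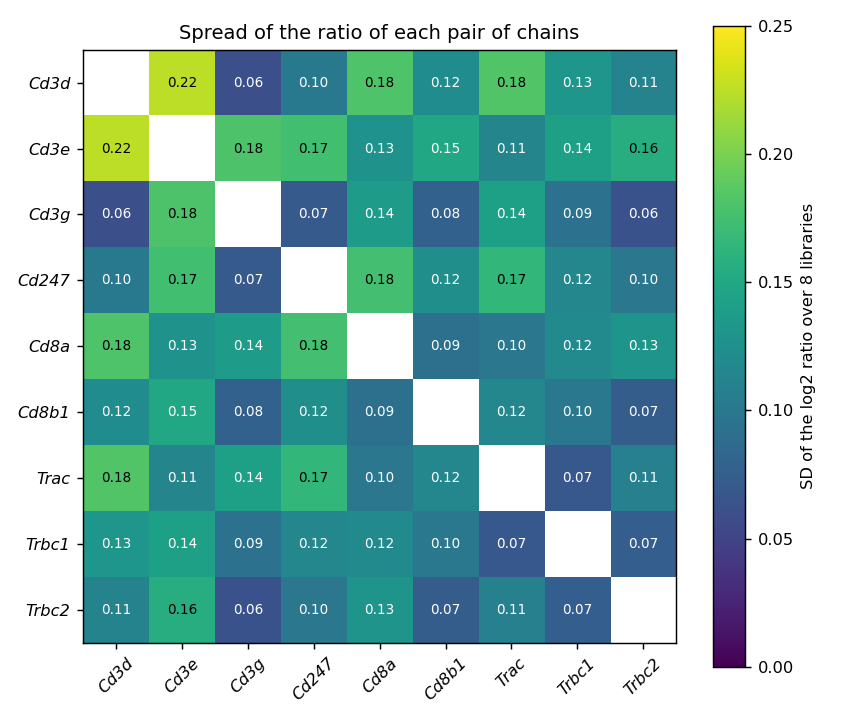
Spread of the ratio of each pair of the 9 genes, as the SD of the log2 ratio of counts over 8 libraries (colour scale and printed values, rows and columns are genes). Cd3d with Cd3g has the smallest SD, 0.061, and Cd3d with Cd3e the largest, 0.225.

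Cd247, the zeta chain, which carries most of the receptor's activation motifs (ENSMUSG00000005763, chromosome 1, 165788681 to 165877277, plus strand), had 486, 575, 603, 530.4 and 505 CPM in Furin KO replicates 1 to 5. WT replicates 1 to 3 had 515, 554 and 615 CPM. The highest library was WT and the lowest was labelled Furin KO, with the others mixed. Its log2 fold change stood at -0.057 (95% interval -0.26 to 0.14; exact permutation p = 0.571), and the ratio of Cd247 to Cd3e was 0.984 ± 0.096 in Furin KO and 1.02 ± 0.19 in WT (exact permutation p = 0.804). Pou2f1, on the opposite strand, shares 3007 of the 5329 exonic bases of Cd247. Its count was 6.32 to 12.7% of that of Cd247, and the strand setting of the counting is not given in the sources used here, so reads of the shared bases cannot be told apart.

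Trac, the alpha constant gene (ENSMUSG00000076928, chromosome 14, 54220521 to 54224206, plus strand), had 957, 1090.4, 921, 1071 and 1073 CPM in Furin KO replicates 1 to 5 and 959, 1064 and 979 CPM in WT replicates 1 to 3. The WT libraries lay inside the range of the libraries labelled Furin KO. Its log2 fold change was 0.031 (95% interval -0.15 to 0.21; exact permutation p = 0.768).

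The beta constant genes lie on chromosome 6 with their starts 8512 bases apart: Trbc1 (ENSMUSG00000076490, 41538218 to 41539881, plus strand) and Trbc2 (ENSMUSG00000076498, 41546730 to 41548352, plus strand). Their coding sequences, of 521 bases each with the stop codon, differ at 23 bases (95.6% identity). The first 259 bases are identical, and the first exon, of 375 bases, holds 1 difference. The remaining 146 coding bases, spliced, hold 22 differences and are shown because only coding reads that reach a difference can be assigned to 1 of the genes. They are from the GENCODE M21 transcripts on GRCm38, at chr6:41539114-41539665 (Trbc1) and chr6:41547610-41548181 (Trbc2), and capitals mark the bases that differ.
Trbc1: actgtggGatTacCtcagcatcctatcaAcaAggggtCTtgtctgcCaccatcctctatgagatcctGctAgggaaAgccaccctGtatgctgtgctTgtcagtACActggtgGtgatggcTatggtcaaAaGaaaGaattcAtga
Trbc2: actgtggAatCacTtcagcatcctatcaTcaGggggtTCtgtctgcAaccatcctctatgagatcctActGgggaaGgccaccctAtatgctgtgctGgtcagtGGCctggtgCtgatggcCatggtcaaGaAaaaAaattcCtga

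Trbc1 had 393, 430.2, 412, 450.4 and 431 CPM in Furin KO replicates 1 to 5 and 390.04, 427 and 436 CPM in WT replicates 1 to 3. Trbc2 had 960.4, 1067, 1049, 1054 and 1033 CPM in Furin KO and 919, 1165 and 1119.9 CPM in WT. The 7-week libraries were again the lowest, and the highest Trbc2 values were in WT replicates 2 and 3. The log2 fold changes were 0.020 for Trbc1 (95% interval -0.16 to 0.20) and -0.049 for Trbc2 (95% interval -0.24 to 0.14), with exact permutation p of 0.714 and 0.625. How reads that match both genes were counted is not given in the sources used here, so the split between them is uncertain, and summed to 1 feature they had a log2 fold change of -0.029. The ratio of Trbc1 to Trbc2 was 0.410 ± 0.014 in Furin KO and 0.393 ± 0.029 in WT (log2 difference 0.062, 95% interval -0.074 to 0.19; exact permutation p = 0.304).

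The ratio of Trac to the summed beta constant genes was 0.707, 0.728, 0.630, 0.712 and 0.733 in Furin KO replicates 1 to 5 and 0.732, 0.669 and 0.629 in WT replicates 1 to 3. Furin KO replicate 3 stood apart from the other 4 of its genotype, near the lowest WT library. The log2 difference was 0.054 (95% interval -0.13 to 0.21; exact permutation p = 0.464).

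The ratio of Cd8a to Cd3e was the single one of the 10 tested whose groups did not overlap. It was 3.08, 3.22, 3.16, 3.44 and 3.05 in Furin KO replicates 1 to 5 and 2.52, 3.02 and 3.03 in WT replicates 1 to 3. The lowest library labelled Furin KO and the highest WT library were 3.048 and 3.035. The log2 difference was 0.16 (95% interval 0.012 to 0.35), and by exact two-sided permutation p = 0.0179, the lowest value that 56 arrangements allow. Adjusted over the 10 ratios the exact p was 0.179, which is also the lowest that a single ratio can reach here, so it does not pass. Within the runs the ratio was 3.08 in Furin KO and 2.52 in WT, then 3.19 and 3.02, then 3.25 and 3.03. Without WT replicate 1 the log2 difference was 0.073 (exact permutation p = 0.19), in the 8-week libraries alone it was 0.085 (exact p = 0.2), and between group medians it was 0.063 (exact p = 0.161). Over all 36 pairs, 2 had groups that did not overlap, Cd8a with Cd3e and Cd8a with Trbc2. Among the 72010 pairs of the 380 genes at least as abundant as the lowest of the 9, 2.61% had such groups.

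The summed CD8 chains over the summed CD3 chains stood at 2.16 ± 0.089 in Furin KO and 2.01 ± 0.11 in WT (log2 difference 0.10, 95% interval -0.066 to 0.22; exact permutation p = 0.0714, 0.357 adjusted over the 10). The ratio of Trac to Cd3e was 1.86 ± 0.16 in Furin KO and 1.81 ± 0.16 in WT (exact permutation p = 0.661). Of the 10 ratios, 1 had an unadjusted exact permutation p under 0.05 and 0 passed after adjustment.

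**Figure D4:**
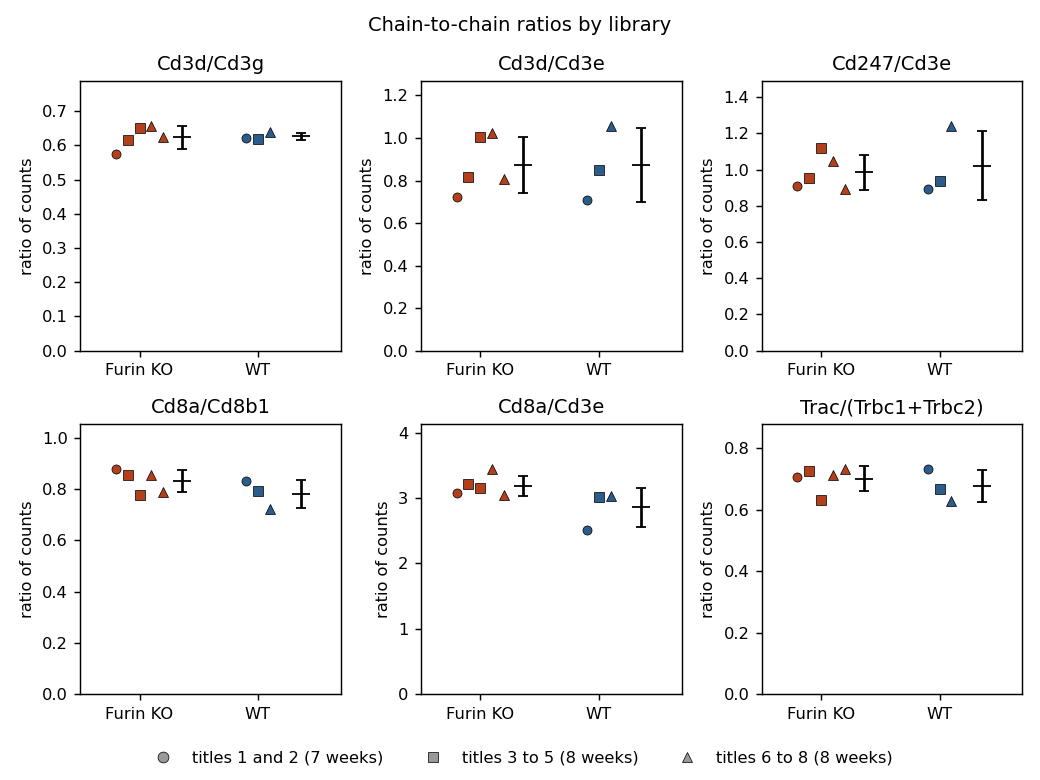
Ratios of counts between chains in every library (vertical axes, from 0), with Furin KO left of WT. Points are libraries, their shape gives the run of sample numbers, and the bar is the mean ± SD (n = 5 and 3). Cd3d/Cd3e spans 1.49-fold within both genotypes together, and Cd8a/Cd3e has no overlap, with 3.048 as the lowest Furin KO and 3.035 as the highest WT value.

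The levels of different genes were compared per kilobase of annotated exon. In both genotypes the order was Trbc2, Cd8b1, Trac, Trbc1, Cd8a, Cd3d, Cd3g, Cd3e and Cd247. How reads matching both Trbc1 and Trbc2 were counted is not given, so the places of these genes are uncertain. Trbc2 averaged 1492 ± 61.1 CPM per kilobase in Furin KO and 1543 ± 189 in WT. Cd8b1 averaged 1424 ± 104 in Furin KO and 1370 ± 175 in WT. These ranges of mean ± SD overlapped, but within every single library Trbc2 was above Cd8b1. Cd3d averaged 264.0 ± 33.4 CPM per kilobase in Furin KO and 264 ± 33.1 in WT. Cd3g averaged 234 ± 19.2 in Furin KO and 234 ± 27.1 in WT. Their ranges overlapped too, with Cd3d above Cd3g within every library. For the other neighbours by this length, the ranges of mean ± SD did not overlap in either genotype. Cd247, at the low end, had 101 ± 9.08 CPM per kilobase in Furin KO and 105 ± 9.44 in WT. The order of the CD3 chains, and which neighbours overlap, depend on the length used. With the longest coding transcript, Cd3g moved above Trbc1, with 748 CPM per kilobase in Furin KO and 746 in WT. Cd3e, with 376 in Furin KO and 380 in WT, stood above Cd3d, with 296 in both. The ranges of Trbc1 and Cd8a then overlapped in both genotypes. Trbc1 averaged 574 ± 29.5 in Furin KO and 567 ± 33.1 in WT, and Cd8a 560 ± 35.6 and 506 ± 57.7.

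Across the 8 libraries, Cd3d varied most (coefficient of variation 11.7%) and Trbc1 least (5.03%). At 5 of the 9 genes, Cd3d, Cd3g, Cd8b1, Trbc1 and Trbc2, the 7-week libraries of both genotypes were below all 6 libraries of 8 weeks. This pattern was picked after the values were seen, and 8.15% of the genes tested had it. At Cd3e, Cd247, Cd8a and Trac the 7-week libraries lay within or across the range of the others.

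Reads of the variable segments that are joined to these constant genes were also counted. Summed over 108 annotated alpha V segments, they came to 0.0921, 0.0974, 0.1097, 0.0927 and 0.0986 per Trac count in Furin KO replicates 1 to 5 and 0.0799, 0.092 and 0.0889 in WT replicates 1 to 3. The lowest library labelled Furin KO and the highest WT library were nearly equal, at 0.092065 and 0.092023. The means were 0.0981 ± 0.0071 in Furin KO and 0.0869 ± 0.0063 in WT, given without a test. Over 22 beta V segments the ratio to the summed beta constant genes was 0.395 ± 0.025 in Furin KO and 0.379 ± 0.024 in WT, with overlapping groups.

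Other genes of the receptor pathway came from lists chosen with earlier results of these data known. Of 22 genes of proximal signalling, 17 had log2 fold changes below 0 (50.2% of all genes did) and 5 above, 0 passed edgeR's test in either direction, and the median was -0.059. 3 of the 22 had groups that did not overlap, all lower in Furin KO (13.6%, against 1.59% of all genes in that direction). Among these, Ptpn6, the phosphatase SHP-1, averaged 553 ± 26.2 CPM in Furin KO and 604 ± 19.5 CPM in WT (log2 fold change -0.13). Cd5, a surface receptor that dampens receptor signals, averaged 277 ± 18.1 CPM in Furin KO and 303 ± 3.35 CPM in WT (-0.13). Themis, an adaptor needed in thymic selection, had a log2 fold change of -0.20 and Cd6, a relative of Cd5, one of -0.12. Lck and Zap70, the kinases that act directly on the complex (-0.0049 and -0.0013), were chosen for naming after their values were seen.

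Of 17 genes of receptor assembly and turnover 16 were tested, 5 with log2 fold changes above 0 and 11 below, and 0 passed in either direction (median -0.041). Trat1, the receptor-associated adaptor TRIM, averaged 20.9 ± 4.49 CPM in Furin KO and 27.0 ± 1.34 CPM in WT (log2 fold change -0.36, edgeR unadjusted p = 0.0447, adjusted p = 0.9998). Syvn1, a ubiquitin ligase that disposes of unassembled chains, had a log2 fold change of -0.16, and the chaperones Canx and Pdia3 had 0.096 and 0.094.

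Of 20 transcription factors of the receptor and co-receptor loci 19 were tested, 10 with log2 fold changes above 0 and 9 below, and 0 passed (median 0.0028). Myb had 0.24 (0.077 without Furin KO replicate 1), Runx1 -0.22, Gabpa -0.16 and Ets1 -0.13. Runx3, a factor of CD8 lineage cells, had 0.028, and was picked for naming after its value was seen.

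Of 9 listed genes of other receptors, 5 were tested, 3 with log2 fold changes above 0 and 2 below, and 0 passed (median 0.25). Hcst, the signalling adaptor DAP10, was at 73.2 to 107 CPM in Furin KO and 75.7 to 93.6 CPM in WT (log2 fold change -0.0095), a gene picked for naming after its value was seen. Trdc, the delta constant gene of gamma-delta T cells, averaged 13.8 ± 1.49 CPM in Furin KO and 11.6 ± 1.52 CPM in WT. The gamma constant genes Trgc1, Trgc2 and Trgc4 were each at most 1.26 CPM in any library, and Cd4 at most 0.892 CPM. Of 8 naive and memory markers 7 had log2 fold changes above 0 and 1 below, and 0 passed (median 0.067). Il7r, the receptor of the survival cytokine interleukin-7, averaged 559 ± 66.9 CPM in Furin KO and 686 ± 95.2 CPM in WT (log2 fold change -0.29, edgeR unadjusted p = 0.0145, adjusted p = 0.9998). Cxcr3, a chemokine receptor of activated cells, had a log2 fold change of 0.58. Cd44, low in naive cells, was at most 2.72 CPM in any library. Its log2 fold change was 0.96 (95% interval -0.55 to 2.48; edgeR unadjusted p = 0.198, adjusted p = 0.9998). That value rested on single WT libraries. Without WT replicate 1 it was 2.24 (edgeR unadjusted p = 0.0175, adjusted p = 0.9999), without WT replicate 2 it was 0.55 and without WT replicate 3 it was 0.61. Of 14 markers of other cell types, 5 were at 0 in every library (Ms4a1, Csf1r, Siglech, Ncr1 and Hbb-bs) and 3 were tested. Foxp3 was at most 2.28 CPM and Itgam at most 2.08 CPM in any library. Their log2 fold changes were -0.90 (95% interval -2.45 to 0.64) and -0.82 (95% interval -2.50 to 0.86). Cd79b had a log2 fold change of -0.037, and 0 of these 3 passed. The summed level of the 14 was 23.0 to 31.0 CPM in Furin KO and 23.5 to 33.1 CPM in WT, most of it Cd79b, and its part in the results was not tested.

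The genes whose levels ran most like those of the receptor chains over the 8 libraries were ranked by Pearson's r of log2 CPM among 4470 genes of at least 50 CPM, receptor segments left out. The libraries share depth and preparation, and the highest of so many values are given as a description. The mean of the CD3 chains joins genes that did not all run together. Over the libraries r was 0.96 for Cd3d with Cd3g, -0.24 for Cd3d with Cd3e and -0.17 for Cd3g with Cd3e. Against the mean of the CD3 chains, the first 5 were Lamp1, a lysosomal membrane protein (r = 0.975), Clta, a clathrin light chain (0.973), Cnbp (0.963), Gosr2 (0.962) and Tmsb4x, the actin-binding thymosin beta-4 (0.960). Against the mean of Cd8a and Cd8b1 they were Rab1b, a GTPase of transport to the Golgi (0.968), Lgals3bp (0.943), Psmb2, a proteasome subunit (0.940), Tomm70a (0.932) and St13 (0.932). Each of the 10 had an edgeR adjusted p of 0.9998 between the genotypes.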

How the data were processed

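Total RNA of naive CD8+ T cells was sequenced in 8 libraries, per the labels' protocols. The values deposited by the authors are raw counts per gene for 55573 Ensembl identifiers, in 1 table. FastQC, Trim Galore, STAR, DESeq2 1.24.0 and GRCm38 are named in the submitters' processing notes. The sources used here do not give the counting program, annotation, strand setting or treatment of reads matching several genes. GENCODE M21 on GRCm38 supplied symbols and coordinates (55480 identifiers matched, 93 did not), and 5 of the 9 genes have a RefSeq promoter entry.

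From the deposited counts, edgeR 4.0.16 (R 4.3.3, limma 3.58.1) was run over 12500 genes with TMM factors and the filterByExpr filter. Genotype was the single term of the two-sided quasi-likelihood test, with Benjamini-Hochberg adjustment. It was tested on simulated data. Ratios of counts and log2(CPM + 1) were compared by exact two-sided permutation over 56 arrangements. Alternatives were other size factors and filters, DESeq2 1.42.0, limma-voom, age or run as a factor, subsets of libraries and Trbc1 and Trbc2 summed. Per-kilobase values by transcript length were added after seeing the data. The 9 genes, the 6 lists and the tests were chosen with earlier results of these data known. Up to 4 genes of each list, those of lowest unadjusted p, are named. A few listed genes are not reported here. No 2 libraries agreed within sampling noise (chi-square per degree of freedom of 11.0 to 40.5 over 28 pairs). Replicate numbers follow accession order.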

Additional observations from a re-analysis of the deposited data

Results flagged for a closer look

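In the ratio of Trac to the summed Trbc1 and Trbc2 counts, Furin KO replicate 3 had 0.630, against 0.707 to 0.733 in the other 4 libraries labelled Furin KO, a gap that is large for a group of 5 by Dixon's test. The 3 WT libraries had 0.732, 0.669 and 0.629. Of 19 values tested in this way 1 was set apart, where chance gives about 0.95.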

How the results depend on the processing

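0 of the 9 genes passed in any of the 19 alternative fits. Over all genes, 4 were called, 38 with all genes of at least 1 count, 15 by DESeq2, 12 with the run as a factor and 3 to 5 without 1 library. As no gene of the 9 was called, the reversals that follow are changes of sign around 0. Cd3d had a log2 fold change of -0.0020 by limma-voom, -0.045 with age as a factor, -0.046 with the run as a factor and -0.030 in the 8-week libraries alone. Cd3g had -0.027 with age, -0.028 with the run and -0.047 at 8 weeks. At 8 weeks Cd3e had 0.025, Trbc1 -0.0019 and Cd8b1 -0.00042. Over all 8 libraries, Trbc1 and Trbc2 summed had -0.029. Ratios at 8 weeks gave log2 differences of 0.016 for Cd3d/Cd3g, -0.061 for Cd3d/Cd3e, -0.077 for Cd3g/Cd3e and -0.0062 for Trac/Cd3e. Group medians gave 0.0064, -0.053 and -0.042 for the first 3 of these and 0.027 for Cd247/Cd3e.

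Without 1 library each, edgeR log2 fold changes ranged from -0.11 to 0.017 for Cd247, -0.094 to 0.074 for Cd3d, -0.087 to 0.035 for Cd3e, -0.086 to 0.061 for Cd3g, -0.036 to 0.14 for Cd8b1, -0.023 to 0.055 for Trbc1 and -0.14 to 0.019 for Trbc2. On log2(CPM + 1) they ranged from -0.12 to 0.010 for Cd247, -0.11 to 0.074 for Cd3d, -0.092 to 0.036 for Cd3e, -0.094 to 0.061 for Cd3g, 0.092 to 0.24 for Cd8a, -0.042 to 0.14 for Cd8b1, -0.00079 to 0.075 for Trac, -0.029 to 0.052 for Trbc1 and -0.15 to 0.024 for Trbc2. The exact test passed without adjustment for Cd8a without WT replicate 2 and for Trbc2 without WT replicate 1, each at p = 0.0476, the smallest of 21 arrangements. At the same unadjusted exact p stood Trbc1/Trbc2 without WT replicate 1 and the CD8 to CD3 ratio without WT replicate 2 (0.476 and 0.238 adjusted). Log2 differences of ratios ranged from -0.14 to 0.10 for Cd247/Cd3e, -0.13 to 0.16 for Cd3d/Cd3e, -0.026 to 0.023 for Cd3d/Cd3g, -0.11 to 0.15 for Cd3g/Cd3e, -0.020 to 0.11 for Trac/Cd3e, 0.073 to 0.21 for Cd8a/Cd3e, 0.034 to 0.13 for Cd8a/Cd8b1, 0.012 to 0.12 for Trbc1/Trbc2, 0.0029 to 0.11 for Trac/(Trbc1+Trbc2) and 0.081 to 0.15 for the CD8 to CD3 ratio. Of the listed genes, Cd79b (-0.13 to 0.11), Itgam (-1.24 to 0.45) and Trgc1 (-0.081 to 1.40) changed sign, and Cd44 (0.55 to 2.24) and Myb (0.077 to 0.37) kept theirs. The cause was not tested.

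No paired analysis was possible because the titles number each library uniquely and no label pairs single libraries across genotypes. Runs and age, which group libraries, were used as factors. Arrangements within runs number 18, with a smallest p of 0.0556, and 8-week libraries allow 15, with a smallest p of 0.0667, so neither can pass. The 3 WT libraries limit every comparison.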
